A study of Homo sapiens with 3 samples.

Results

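The miR-26 family has 3 human hairpins, hsa-mir-26a-1, hsa-mir-26a-2 and hsa-mir-26b, and its members were taken by name from the deposited tables. All 3 were among the 661 hairpins listed, and 5 of the 783 mature names were miR-26 arms. Small RNA had been sequenced from MV4-11, an established human acute myeloid leukemia line that is FLT3-ITD+ and carries the MLL-AF4 fusion. The label gives its genotype as WT. Every culture had been infected with the EV (empty vector) lentiviral CRISPR-Cas9 construct and was grown for 2 weeks before RNA was taken. The 3 replicate cultures formed 1 group, and the family was therefore compared between arms, copies, paralogs and libraries, and never between treatments. Uninfected cells and other lines were not analysed here.

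A miRNA hairpin is cut by Drosha and then Dicer into a short duplex, and usually 1 strand of it, the 5p or the 3p arm, is kept by an Argonaute protein while the other is degraded. The bases at positions 2 to 8 of the kept strand, the seed, pair with target mRNAs. miR-26 lies in introns of genes for small phosphatases that remove phosphate from the C-terminal domain of RNA polymerase II. It is known as a miRNA that MYC represses and as a repressor of EZH2, the histone H3 lysine 27 methyltransferase, and it slows growth in several tumor types.

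The hosts were CTDSPL for mir-26a-1, CTDSP2 for mir-26a-2 and CTDSP1 for mir-26b. In the GRCh38 annotation of GENCODE release 29, mir-26a-1 lies at chr3:37969404-37969480 on the plus strand, in intron 4 or 5 of CTDSPL depending on the transcript. The mir-26a-2 hairpin lies at chr12:57824609-57824692 on the minus strand, in intron 5 of CTDSP2. That of mir-26b lies at chr2:218402646-218402722 on the plus strand, in intron 4 of CTDSP1. Each hairpin is on the strand of its host, and no exon overlapped it in the 5, 6 and 11 host transcripts that span mir-26a-1, mir-26a-2 and mir-26b. The deposited tables hold names only, so these positions come from the annotation and the RefSeq sequences of GRCh38.p14.

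The mature sequences show what the reads can and cannot tell apart. The 5p arms are shown first with the seed in capitals, which is the same in both.
miR-26a-5p (from mir-26a-1 and mir-26a-2): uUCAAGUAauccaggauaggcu
miR-26b-5p: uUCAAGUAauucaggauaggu
Positions are counted from 1 at the 5′ end. miR-26b-5p differs from miR-26a-5p by C11U and C21U and is 1 base shorter, so reads of these arms can be assigned to a or b. The 22 bases of miR-26a-5p are identical in both of its hairpins, so a read of it does not tell the copy.

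The 3p arms of the miR-26a copies differ, and the capitals here mark the bases that do.
miR-26a-1-3p: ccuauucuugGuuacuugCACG
miR-26a-2-3p: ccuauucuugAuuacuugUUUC
These differ by 5 substitutions, G11A, C19U, A20U, C21U and G22C, with the copy from mir-26a-1 given first. The 3p arm of mir-26b is shown with its bases 2 to 8 in capitals, which differ from those of both miR-26a copies.
miR-26b-3p: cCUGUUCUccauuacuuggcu
Both 5p arms start with U and all of the 3p arms with C.

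Among the RefSeq sequences, 4 mature miRNAs carry the seed of miR-26a-5p. Besides the 2 family members they are the following, with the seed in capitals.
miR-1297: uUCAAGUAauucaggug
miR-4465: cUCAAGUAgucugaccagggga
Neither had a row in the mature table, and no level was assigned to them. The seed was therefore represented by miR-26a-5p and miR-26b-5p alone. Together they made up 2.01%, 2.24% and 2.44% of mature counts in replicates 1, 2 and 3, a mean of 2.23% ± 0.216 (SD, n = 3). This placed the seed at rank 9 of 580 seeds among the 679 mature names with a RefSeq sequence, which held 93.0% to 93.4% of the counts. These shares take miR-26a-5p as the sum of its 2 rows in the table, described below. With the mean of the rows of every repeated name they were 1.30%, 1.61% and 1.82%, a mean of 1.58% ± 0.261 (SD, n = 3), at rank 10.

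Mature counts totalled 12694823, 10991953 and 11682129 in replicates 1, 2 and 3. Levels below are FPKM, fragments per kilobase of feature and per 1000000 reads, as deposited. They are high because mature miRNAs are short. The libraries had no molecular identifiers, so the intervals below, Wilson 95% intervals, cover counting error only. Adapter ligation depends on the sequence, so ratios between different miRNAs are not strict molar ratios. Replicate 1 stood apart, with a median log2 ratio of FPKM over all mature names of 0.48 for replicate 2 and 0.57 for replicate 3 over replicate 1, against 0.09 for replicate 3 over replicate 2. FPKM is relative to the library total, of which miR-21-5p alone held 4892903, 2950274 and 2361478 counts in replicates 1, 2 and 3. The part of miR-21-5p in these ratios was not tested. Of 7 miRNAs of white blood cells, 7 were listed and 6 were among the 100 most abundant of the 783 names. The exception was miR-150-5p at 53.2 ± 30.0 FPKM (SD, n = 3). Of 8 markers chosen for other tissues 7 were listed, with miR-205-5p absent, and 2 were among the 100 most abundant. These were miR-9-5p and miR-124-3p, chosen as neural markers, at 340814 ± 29486 and 55618 ± 32463 FPKM (SD, n = 3). Why they were abundant in this leukemia line was not tested.

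miR-26a-5p was the most abundant member. It had 208925, 173454 and 192307 counts in replicates 1, 2 and 3, which is 1.65%, 1.58% and 1.65% of mature counts. Its FPKM was 783530, 751273 and 783708, a mean of 772837 ± 18675 (SD, n = 3). It ranked 13 of 783. On this scale the libraries lay close together, with replicate 2 the lowest. Its Wilson interval, 1.57% to 1.59% of mature counts, did not overlap those of replicates 1 and 3, both 1.64% to 1.65%. The neighbours below it, miR-24-3p at 771176 and miR-103a-3p at 765472 FPKM, were nearer to it than the larger of the SDs compared. So was miR-17-5p, just above it. miR-155-5p at rank 11, with 1100895 ± 124530 FPKM (SD, n = 3), exceeded it by more than that.

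miR-26b-5p was the second member by level. It had 46568, 72768 and 93298 counts, which is 0.367%, 0.662% and 0.799% of mature counts. Its FPKM was 183376, 330935 and 399228, a mean of 304513 ± 110325 (SD, n = 3), and it ranked 31. Replicate 1 was the low library, and replicates 2 and 3 lay closer to each other. Its neighbours at ranks 29 to 33, miR-27a-3p, miR-148b-3p, miR-140-3p and miR-142-5p, all lay within its SD of it.

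The 3p arms were lower by orders of magnitude. miR-26b-3p had 244, 454 and 562 counts and 915, 1966 and 2290 FPKM, a mean of 1724 ± 719 (SD, n = 3), at rank 239. miR-26a-2-3p had 180, 325 and 265 counts and 675, 1408 and 1080 FPKM, a mean of 1054 ± 367 (SD, n = 3), at rank 278. miR-26a-1-3p had 8, 13 and 34 counts and 30.0, 56.3 and 138.6 FPKM, a mean of 75.0 ± 56.6 (SD, n = 3), at rank 573, and without replicate 3 its mean was 43.2 FPKM. Replicate 1 was the lowest library for each of them, and replicate 3 was the highest for the arms of mir-26b and mir-26a-1 but not for that of mir-26a-2. The levels of miR-26b-3p and miR-26a-2-3p differed by 669.7 FPKM, which is within the SD of miR-26b-3p. Per 1000000 mature counts, miR-26a-1-3p was at 0.630 (0.319 to 1.24), 1.18 (0.691 to 2.02) and 2.91 in replicates 1, 2 and 3. The interval of replicate 3, which reached up to 4.07, did not overlap those of the other libraries.

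**Figure D1:**
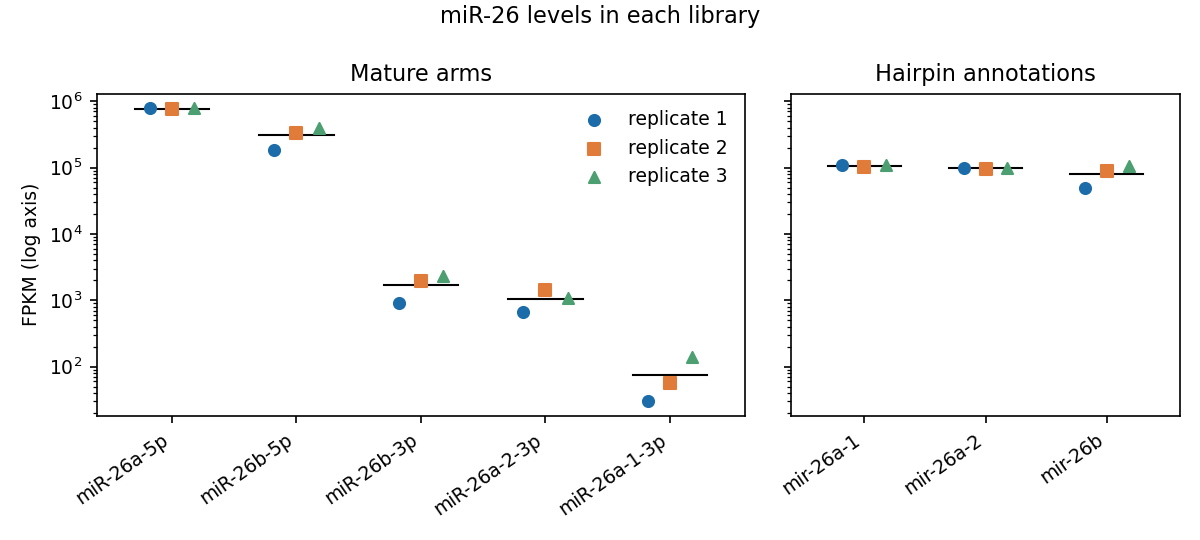
FPKM on a log axis of the 5 miR-26 mature arms (left) and the 3 hairpin annotations (right). Points are the 3 replicate libraries and bars their means. The 5p arms lie at 772837 and 304513 FPKM on average and the 3p arms at 75.0 to 1724, while the hairpins lie within 80412 to 106346.

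Whether both miR-26a copies were in use could not be read from the 5p arm or from the hairpin table. miR-26a-5p was listed in 2 rows with no hairpin named. The first held 104491, 86452 and 95943 counts and the second 104434, 87002 and 96364. The share of the first row was 50.0% (49.8 to 50.2), 49.8% (49.6 to 50.1) and 49.9% (49.7 to 50.1) in replicates 1, 2 and 3, and each of these intervals holds an even split. The hairpin rows followed them. The hairpin hsa-mir-26a-1 had 104503, 86471 and 95981 counts and hsa-mir-26a-2 had 104716, 87461 and 96759, with 106346 ± 2724 and 98071 ± 2162 FPKM (SD, n = 3). For hsa-mir-26b, which has no second copy, they were 46817, 73239 and 93878 counts and 80412 ± 29141 FPKM (SD, n = 3). These placed the 3 hairpins at ranks 26, 27 and 30 of 661. The sources used here do not state whether a read that fits both copies was given to 1 of them or counted at both. If it was counted at both, the summed miR-26a-5p is up to 2 times too high, and the mean of its rows, 386418 FPKM, is the level. With means of rows for all repeated names, miR-26a-5p ranked 19 and miR-26b-5p ranked 27.

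The counts did tell which 5p row belonged to which hairpin, if a hairpin's count holds those of its arms. With the first row given to mir-26a-1, the reads of that hairpin outside its arms came to 4, 6 and 4 in replicates 1, 2 and 3, and those of mir-26a-2 to 102, 134 and 130. With the second row given to mir-26a-1, the remainder would be -544 and -417 in replicates 2 and 3, which cannot be. The remainder of mir-26b was 5, 17 and 18 reads, a mean of 0.0177% of its count. The median over 92 hairpins with both arms in single rows and at least 1000 counts in every library was 0.0557%. Reads outside the arms were thus few in all 3 hairpins, at most 0.153% of the count of mir-26a-2.

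The 3p arms, whose sequence tells the hairpin, gave unequal shares. Of the 188, 338 and 299 counts of miR-26a 3p arms in replicates 1, 2 and 3, mir-26a-2 gave 95.7% (91.8 to 97.8), 96.2% (93.5 to 97.7) and 88.6% (84.5 to 91.7). Counts of miR-26a-2-3p exceeded those of miR-26a-1-3p by 22.5-fold, 25.0-fold and 7.79-fold. The mir-26a-2 copy was the higher in 3 of 3 libraries, and replicate 3 had the smallest ratio. The edgeR quasi-likelihood test, with the library as a block, put the log2 ratio at 3.91 ± 0.42 (SE, adjusted p = 0.001), and without replicate 3 at 4.57. It was fitted across all arms listed separately for a copy 1 and a copy 2, of which there were only 6. A pair was called with an adjusted p under 0.05 and an absolute log2 ratio of at least 1. Copy 2 was called higher for 3 of the pairs (50.0%), miR-26a among them, and copy 1 for 0. The direction was thus shared by the other called pairs, which are few.

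With mir-26b added, the 3p counts of the family divided into 1.85%, 1.64% and 3.95% from mir-26a-1, 41.7%, 41.0% and 30.8% from mir-26a-2, and 56.5%, 57.3% and 65.3% from mir-26b. The means were 2.48% ± 1.28, 37.8% ± 6.11 and 59.7% ± 4.85 (SD, n = 3). The order mir-26b, mir-26a-2, mir-26a-1 was the same in each library. Replicates 1 and 2 lay close together, and replicate 3 had a larger share of mir-26b and of mir-26a-1. A smaller share of 3p reads from a hairpin can come from fewer hairpin transcripts or from less of the 3p strand being kept. It can also come from adapter ligation, which depends on the sequence, since the 3p arms differ in their last bases. These cannot be told apart in mature reads.

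**Figure D2:**
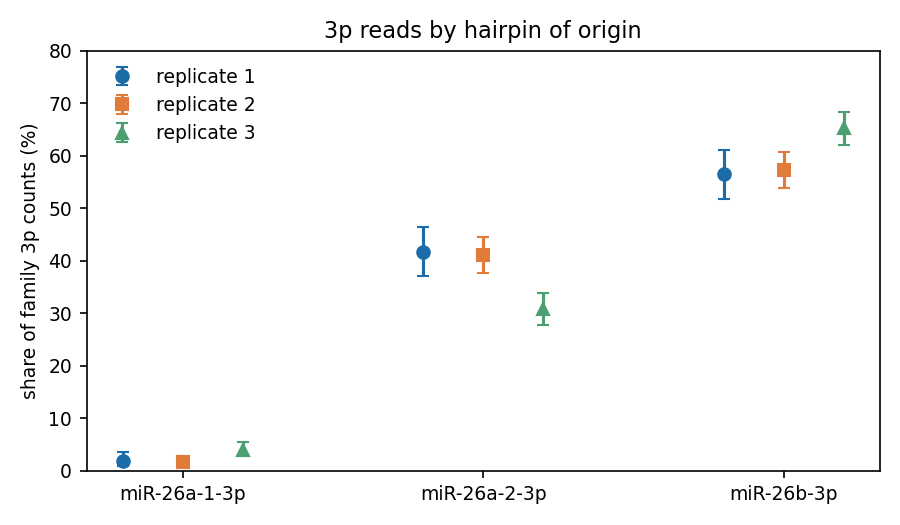
Share of the summed miR-26 3p counts (percent) that came from each hairpin in the 3 replicate libraries, with Wilson 95% intervals for counting error. mir-26a-1 gave 1.64% to 3.95%, mir-26a-2 30.8% to 41.7% and mir-26b 56.5% to 65.3%.

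The 5p arm was the abundant strand throughout the family. For miR-26a, with the copies summed because their 5p arm cannot be split, counts of 5p over 3p were 1111, 513 and 643 in replicates 1, 2 and 3. The log2 ratio was 9.48 ± 0.37 (SE, edgeR quasi-likelihood adjusted p = 1.06e-05), and it was 8.48 with the mean of the 5p rows. For miR-26b the ratios were 191, 160 and 166, and the log2 ratio was 7.42 ± 0.24 (SE, edgeR adjusted p = 7.26e-06). Both were toward 5p in 3 of 3 libraries. Over all 209 hairpin names with both arms listed, 82.3% were called and 41.1% were called toward 5p, so a call alone does not set the family apart. With repeated rows summed, the size of the ratio ranked miR-26a at 4 and miR-26b at 11 of 209 toward 5p. The median absolute log2 ratio was 3.39. The 8.48 of miR-26a with means of rows is below the summed 9.13 of let-7i and 8.78 of miR-21.

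The ratio of miR-26b was steadier between libraries than that of miR-26a. The SD of the log2 ratio over the libraries was 0.13 for miR-26b and 0.57 for miR-26a, against a median of 0.53 over the 208 names with counts of both arms in every library. The arm ratio of miR-26a exceeded that of miR-26b in each library, by 2.54, 1.68 and 1.95 on the log2 scale in replicates 1, 2 and 3, a mean of 2.06 ± 0.44 (SD, n = 3). A limma fit of this difference, on log2(count + 1) and across the 20 names with both arms listed for an a and a b paralog, put it at 2.06 ± 0.28 (SE, adjusted p = 0.0016). With means of rows it was 1.06 (limma adjusted p = 0.0176), and the adjusted p over its alternatives ran from 0.0026 to 0.0176. By the thresholds used above, 85.0% of these names were called in either direction and 25.0% with a more toward 5p. Of 131 called names with a single sequence for each arm, 57.3% of the higher arms and 21.4% of the lower arms started with U, while 12.2% of the higher and 35.9% of the lower arms started with C. The 5p arms of miR-26 start with U and its 3p arms with C, and the part of the first base in its arm ratios was not tested.

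**Figure D3:**
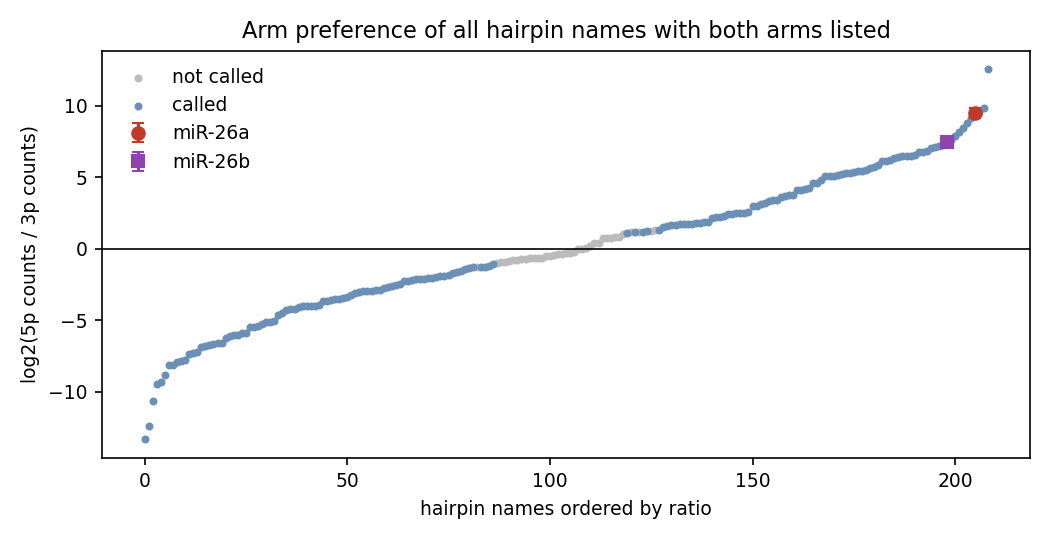
Log2 ratio of 5p to 3p counts for the 209 hairpin names with both arms listed, ordered by ratio. Blue points passed both thresholds and grey points did not. Bars on miR-26a (9.48) and miR-26b (7.42) are standard errors derived from the edgeR F statistic. Both lie near the 5p end.

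Between the paralogs the arms went opposite ways. For the 5p arm, miR-26a exceeded miR-26b by 4.49-fold, 2.38-fold and 2.06-fold in counts in replicates 1, 2 and 3. miR-26b-5p was lower in 3 of 3 libraries, with a log2 ratio of b to a of -1.48 ± 0.28 (SE, edgeR adjusted p = 0.0085). Over 49 pairs of a and b paralogs, 75.5% were called in either direction and 49.0% with b below a. The call rested on the choices made: with the mean of the miR-26a-5p rows the log2 ratio was -0.48 (edgeR adjusted p = 0.182), and without replicate 2 it was -1.60 (edgeR adjusted p = 0.0863). Leaving out replicate 1 or 3 kept the call, at -1.15 and -1.71.

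For the 3p arm, miR-26b exceeded the summed miR-26a copies by 1.30-fold, 1.34-fold and 1.88-fold in counts. The log2 ratio was 0.57 ± 0.20 (SE, edgeR adjusted p = 0.0488), higher in 3 of 3 libraries but under the threshold of 1, so it was not called. Under the alternatives its adjusted p ran from 0.039 with the minimum of 10 counts to 0.25 without replicate 3. Thus mir-26b gave most of the family's 3p reads, and less of its 5p reads than miR-26a. Its share of the 5p counts was 18.2% (18.1 to 18.4), 29.6% (29.4 to 29.7) and 32.7% (32.5 to 32.8), and none of these intervals overlapped another. With the mean of the miR-26a-5p rows the share was 30.8%, 45.6% and 49.2%, so its size rested on how reads that fit both copies were counted. It was lowest in replicate 1 either way.

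**Figure D4:**
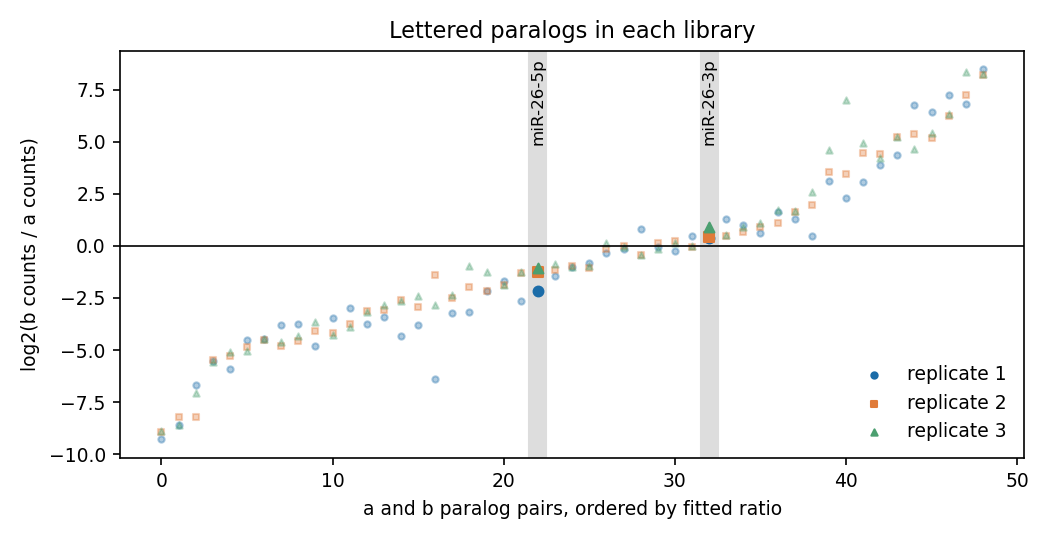
Log2 ratio of counts of the b to the a paralog for 49 pairs of the same number and arm, ordered by the fitted ratio. Symbols are the 3 replicate libraries and shaded columns the miR-26 arms, where all 3 points lie below 0 for 5p (log2 -1.48) and above 0 for 3p (log2 0.57).

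The replicates told apart miR-26a-5p from the rest of the family. On the deposited scale the coefficient of variation of miR-26a-5p was 2.42%, and only 3 of the 163 names with at least 1000 counts in every library were lower. That of miR-26b-5p was 36.2%, with 113 of them lower, where the median was 29.1%. The log2 ratios of FPKM to replicate 1 were -0.06 and 0.00 for miR-26a-5p in replicates 2 and 3, and 0.85 and 1.12 for miR-26b-5p. For the 3p arms they were 1.10 and 1.32 (miR-26b-3p), 1.06 and 0.68 (miR-26a-2-3p) and 0.91 and 2.21 (miR-26a-1-3p). All but miR-26a-5p were thus lowest in replicate 1.

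The steadiness of miR-26a-5p did not hold on another scale. Most miRNAs were higher in replicates 2 and 3 on this scale, so relative to the median of all names miR-26a-5p was at -0.54 and -0.57 and miR-26b-5p at 0.38 and 0.55. Scaled by the median of ratios, counts of miR-26a-5p were 242870, 167770 and 164445 in replicates 1, 2 and 3, and those of miR-26b-5p were 54134, 70383 and 79781. The coefficients of variation were then 23.1% and 19.1%, on either side of the median of 21.7%. Under either scale replicate 1 had the smallest share of miR-26b among the 5p reads, since a ratio within a library does not change with its scale. The part that replicate 1 as a library has in this was not tested. In replicates 2 and 3 alone the coefficient of variation of miR-26b-5p was 13.2%.

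**Figure D5:**
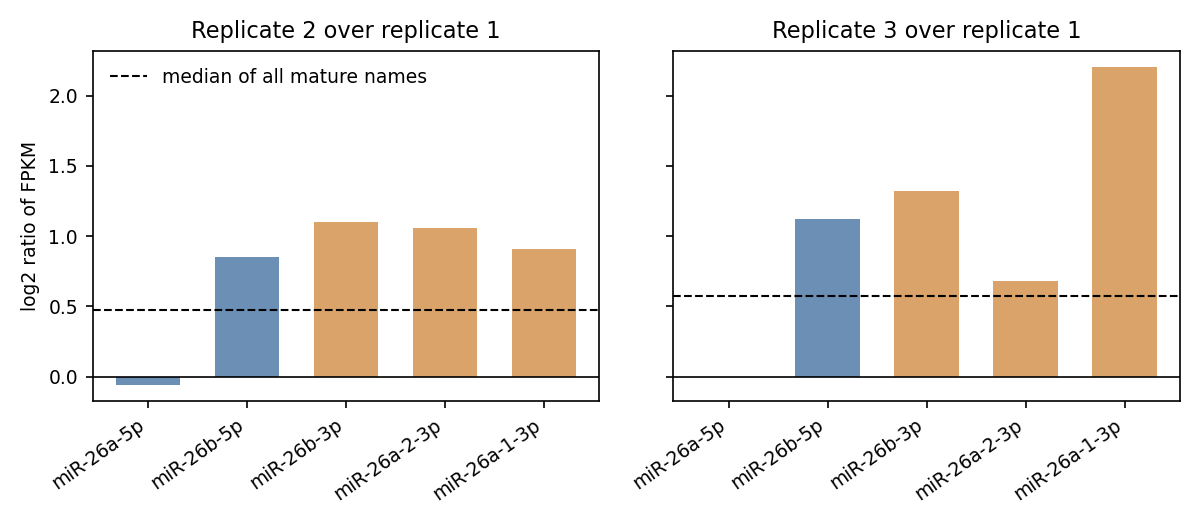
Log2 ratio of deposited FPKM to replicate 1 for the 5 miR-26 arms in replicates 2 (left) and 3 (right), with 5p arms in blue and 3p arms in orange. The dashed line is the median over all mature names (0.48 and 0.57), and miR-26a-5p alone lies under it, at -0.06 and 0.00.

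The names with the pattern over the 3 libraries most like each 5p arm were found among 284 others with a mean of at least 1000 FPKM. The measure was the root mean square difference of centred log2(FPKM + 1). For miR-26a-5p they were miR-30e-3p at 0.0061, miR-3615 at 0.0122 and miR-4326 at 0.0241. For miR-26b-5p they were miR-378a-5p at 0.0141, miR-185-5p at 0.0343 and miR-199b-3p at 0.0344. The pattern has only 3 points, which share their libraries.

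A chosen list of miRNAs known to be lowered by MYC, which includes both miR-26 5p arms, was looked up. Of its 26 arms 26 were listed, 25 were above the median of all mature names and 17 were among the 100 most abundant of the 783 names. Their median was 16.35 on the log2(FPKM + 1) scale, against 8.05 for all names. With repeated rows summed, 4 of them lay above miR-26a-5p, let-7f-5p, let-7i-5p, let-7g-5p and miR-30d-5p, and 7 lay above miR-26b-5p. These counts were not recomputed with means of rows. There miR-26a-5p was at 386418 FPKM, below the summed 436555 FPKM of miR-30e-5p. The lowest arm of the list was miR-150-5p. Other low members were miR-195-5p at 447 ± 275 FPKM, of the miR-15 family, and miR-29c-3p at 1171 ± 452 FPKM (SD, n = 3), from a family known to target collagens and DNA methyltransferases.

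Of 8 miRNAs known to target EZH2, 6 were listed and all 6 were among the 100 most abundant of the 783 names. With repeated rows summed, miR-26a-5p was the highest of these 6. It was followed by let-7a-5p at 544905 ± 91012 and miR-101-3p at 375564 ± 14315 FPKM (SD, n = 3). miR-26b-5p was lower than miR-101-3p by 71051 FPKM, less than its own SD. This order was not recomputed with means of rows, where miR-26a-5p was at 386418 FPKM. miR-98-5p, of the let-7 family, had 96341 ± 22016 FPKM (SD, n = 3), and miR-124-3p had the level given above. miR-138-5p and miR-214-3p had no row. miR-26a-5p, miR-26b-5p, let-7a-5p and miR-98-5p are in both lists.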

How the data were processed

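Small RNA libraries (NEB kit, Illumina) of 3 replicate cultures were analysed. The authors counted reads over miRBase release 21 and deposited whole read counts, not normalized, for mature miRNAs and hairpins. They also deposited FPKM, made from those counts. The length behind the FPKM was 1 base shorter than the reference for each member except miR-26b-3p, where it was the same. The submitters' processing notes list Novoalign 2.08.03 and the builds hg19 and mm10, with no role given; trimming and the treatment of reads with several positions are not given in the sources used here.

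Rows of a repeated mature name were summed (851 rows, 783 names). Pairs of arms, copies and paralogs were tested on counts with the edgeR 4.0.16 quasi-likelihood test in R 4.3.3, with the library as a block, the mature total as library size and Benjamini-Hochberg adjustment over all pairs of a kind. A pair was called at an adjusted p under 0.05 and an absolute log2 ratio of at least 1. edgeR prints no SE for this test. The SE given with its log2 ratios is the absolute log2 ratio divided by the square root of the F statistic. The test was also run on simulated counts with known log2 ratios, and no result given here rests on that run. The difference of arm ratios between miR-26a and miR-26b was tested with limma on log2(count + 1), a test added after seeing the data. Alternatives were DESeq2 1.42.0, limma 3.58.1 on log2 ratios of FPKM + 1, no block, a minimum of 10 counts, means of repeated rows, other scales and leaving out each library. Neighbours in level were the 2 names on either side, and the most alike the 3 nearest. Python 3.11.15, scipy 1.17.1 and matplotlib 3.10.9 did the rest. The members, lists and tests were chosen with earlier results of these data known. All cultures are of 1 cell line, and nothing says that they came from separate infections, so the p-values concern these cultures only. The spread behind them was estimated in part from all pairs fitted together, not from the miR-26 pair alone.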

Additional observations from a re-analysis of the deposited data

How the results depend on the processing

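Of 159 values recomputed under an alternative, 144 kept their side of the threshold or stayed within the spread that applied, and 0 reversed. Part of this tally was fixed in advance, so it is not a measure of robustness. Scaling by the total of the listed counts barely differs from FPKM, which was made from those counts. The 3p arms share the length behind their FPKM, so their shares of FPKM equal those of counts. Means of repeated rows left the arm ratio of miR-26b, whose arms have single rows, at 7.42. The lower miR-26b-5p than miR-26a-5p lost its call with means of repeated rows (log2 ratio -0.48) and without replicate 2. It ran from -1.71 to -1.15 with 1 library left out, and the adjusted p over all its alternatives from 9.68e-06 with DESeq2 to 0.182. With means of rows miR-26a-5p was at 386418 FPKM by construction, and with the reference length, chosen after seeing the data, at 737708. Means of rows also moved the share of miR-26b-5p among the 5p counts to 41.9% and that of both 5p arms in mature counts to 1.58%. Scaling by the median of ratios gave coefficients of variation of 22.5% (miR-26a-2-3p), 23.1% (miR-26a-5p), 25.9% (miR-26b-3p) and 19.1% (miR-26b-5p). With 1 library left out they ran from 43.1% to 91.1% (miR-26a-1-3p), 18.6% to 49.7% (miR-26a-2-3p), 0.016% to 2.99% (miR-26a-5p), 10.8% to 60.7% (miR-26b-3p) and 13.2% to 52.4% (miR-26b-5p). Dropping the replicate block moved the arm ratios to 9.42 (miR-26a) and 7.39 (miR-26b), the copies to 3.81 and the paralogs to -1.41 (5p) and 0.61 (3p), and changed no call of these. The minimum of 10 counts left no value for the miR-26a copies, since miR-26a-1-3p had 8 counts in replicate 1. Depth limits that arm most. Apart from the construction named above, the causes were not tested.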
